A study of Mus musculus with 8 samples.

Results

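Integrins and the cytoplasmic adaptors that couple them to actin were examined in mouse cardiac fibroblasts from healing infarcts. The 32 genes were taken by name from a table of 54532 genes: 12 integrin alpha chains, 7 beta chains, the integrin-like gene Itgbl1 and 12 adaptors. All 32 were found, and 26 of them were expressed at a level that could be tested.

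Integrins are receptors made of 1 alpha and 1 beta chain that bind the extracellular matrix outside the cell and, through adaptors on the short tail of the beta chain, the actin cytoskeleton inside it. Talin and kindlin bind the tail and activate the receptor. Integrin-linked kinase (Ilk), the PINCH proteins (Lims1, Lims2) and the parvins (Parva, Parvb) form a complex at the tail, and focal adhesion kinase (Ptk2), Src, paxillin (Pxn) and p130Cas (Bcar1) pass the signal on. In fibroblasts, integrins that contain the alphaV chain also bind latent TGF-β in the matrix and can release the active cytokine, so the family acts upstream of the receptor deleted in this study as well as being a class of TGF-β responsive genes.

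The series asked what loss of the TGF-β type 2 receptor does to the transcriptome of infarct fibroblasts. PDGFRα+ cells were sorted by flow cytometry from hearts 7 days after coronary occlusion and sequenced without culture as poly(A) RNA. FTbR2KO mice (4 samples) carry a fibroblast-specific deletion of the receptor gene that tamoxifen injection induced. TbR2fl/fl mice (4 samples), the controls, have the floxed gene and received tamoxifen too. The labels used here name neither the Cre driver nor the sex or age. Whether samples are separate animals is not stated, and p-values therefore measure the spread among these samples alone, which may be technical. Samples keep the numbers of their titles, 1 to 4 for FTbR2KO and 5 to 8 for TbR2fl/fl.

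Reads assigned to genes, recovered from the FPKM values, came to 16.1 to 28.7 M per library. The 4 libraries labelled FTbR2KO had 16.1 to 22.9 M and the controls 21.2 to 28.7 M. The mean of the targeted gene was higher, not lower, in the libraries labelled FTbR2KO. Tgfbr2 was at 58.2 ± 1.30 FPKM (fragments per kilobase of exon model, corrected for library depth; SD, n = 4) in the libraries labelled FTbR2KO and at 45.5 ± 3.86 in the controls (SD, n = 4), with no overlap. Tgfbr2 did not pass the test used below (limma unadjusted p = 0.00262, adjusted p = 0.571), and 4.41% of all tested genes had no overlap. A gene-level value cannot show whether an internal exon is missing, so every direction given here refers to the libraries as labelled. The first principal component of all tested genes (33.0% of the variance) separated 1 library of each group, FTbR2KO 1 and TbR2fl/fl 5, from the remaining 6. Xist, expressed from the inactive X chromosome, was at 0.0561 FPKM in FTbR2KO 4 and 0.0215 in TbR2fl/fl 8 and at 30.7 to 49.7 in the other 6, 1 such library in each group. All 10 fibroblast markers were expressed at a level that could be tested, and they summed to 10135 to 12029 FPKM against 10864 to 15392, led by Col1a1. Pdgfra, the gene of the sorting antigen, was at 65.9 ± 13.5 FPKM against 57.6 ± 12.2 (SD, n = 4 each). That level does not single out fibroblasts: 9 of 9 mural cell markers and 9 of 10 epicardial and mesothelial markers reached it too. Ptprc, which encodes the leukocyte antigen CD45, reached at most 0.0346 FPKM in any library. Of 13 macrophage and monocyte markers, Ptprc among them, 3 could be tested, and the 13 summed to 8.45 to 12.9 FPKM against 10.4 to 13.2.

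The tails of Itgb1, Itgb5, Itgb3 and Itgb8 are shown first, because some adaptors, such as talin and kindlin, bind the tails of beta chains. Binding to these tails was not measured. Each sequence is the last 144 bases of the coding region before the stop codon (48 codons) in the principal transcript of GENCODE M21 (build GRCm38), read on the strand of the gene. Capitals mark codons for the NPxY motif (asparagine, proline, any residue, tyrosine). Talin binds the NPxY site nearer the membrane, while kindlin binds nearer the end at a site that need not have the proline, and such sites without it were not searched or marked. The coordinates run from the first to the last base and include introns where the tail crosses a splice site.
Itgb1, chr8:128726106-128732085, plus strand: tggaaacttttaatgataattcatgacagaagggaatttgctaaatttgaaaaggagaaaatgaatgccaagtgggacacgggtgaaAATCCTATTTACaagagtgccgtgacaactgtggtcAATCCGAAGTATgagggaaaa
Itgb5, chr16:33947831-33948749, plus strand: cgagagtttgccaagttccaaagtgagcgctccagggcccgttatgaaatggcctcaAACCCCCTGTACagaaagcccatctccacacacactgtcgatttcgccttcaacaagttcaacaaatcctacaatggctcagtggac
Itgb3, chr11:104665552-104667142, plus strand: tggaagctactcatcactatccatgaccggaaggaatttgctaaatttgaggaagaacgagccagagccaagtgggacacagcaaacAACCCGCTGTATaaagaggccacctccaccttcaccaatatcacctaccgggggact
Itgb8, chr12:119163120-119163360, minus strand: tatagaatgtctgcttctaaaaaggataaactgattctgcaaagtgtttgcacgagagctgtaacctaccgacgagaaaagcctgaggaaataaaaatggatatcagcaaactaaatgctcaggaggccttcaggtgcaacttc

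The tail of Itgb1 held the motif at 2 places, those of Itgb5 and Itgb3 at 1, and that of Itgb8 at none within these 48 codons. Of all 8 beta-chain and beta-like genes, 5 had the motif: Itgb6 and Itgb7 with 1 match each are the other two. Itgb4, whose long tail connects to keratin filaments, and Itgbl1, a secreted protein without a transmembrane chain, had none in their last 48 codons. The rest of the 1802 codons of Itgb4 was not searched. None of the 12 alpha chains had the motif in their last 48 codons. The alpha-chain sequence GFFKR, which lies just inside the membrane, was within the last 80 codons of 8 of the 12.

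No member passed the test between the genotypes. Under limma, a linear model with variances shared across genes, on log2(FPKM + 1), the adjusted p of the 26 tested members ran from 0.571 to 0.999. Over all 11667 tested genes 2 passed (0.0171%). The log2 fold changes (libraries labelled FTbR2KO minus TbR2fl/fl) ran from -0.42 to 0.30, with 16 members above 0 and 10 below. Their median was 0.03, beside -0.0045 for all tested genes, of which 48.8% were above 0. At an unadjusted limma p under 0.05 there were 2 members (7.69%), Itgb8 and Ilk, beside 8.61% of all tested genes. By limma's voom on the reads recovered from the FPKM values, 0 members passed the adjusted threshold. There, 3 of the 26 had an unadjusted p under 0.05 (Src, Itgb8 and Ilk), beside 965 of all 11667 tested genes. The groups did not overlap for 1 member (3.85%), Src, beside 4.41% of all tested genes. These shares are near the background and are no result about the members.

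The data bound the size of a difference more tightly for most members than for a few. The 95% confidence interval of 22 of the 26 lay within 1.5-fold in either direction on the scale of FPKM + 1, which understates the change of genes at a few FPKM, and all 26 lay within 2-fold. The 4 members with wider intervals were Itga5, Itga8, Ilk and Lims2. The difference was larger than the SD within groups for 4 members and smaller for 22. In bulk RNA a change in the share of cells of a type and a change in RNA per cell cannot be told apart.

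**Figure D1:**
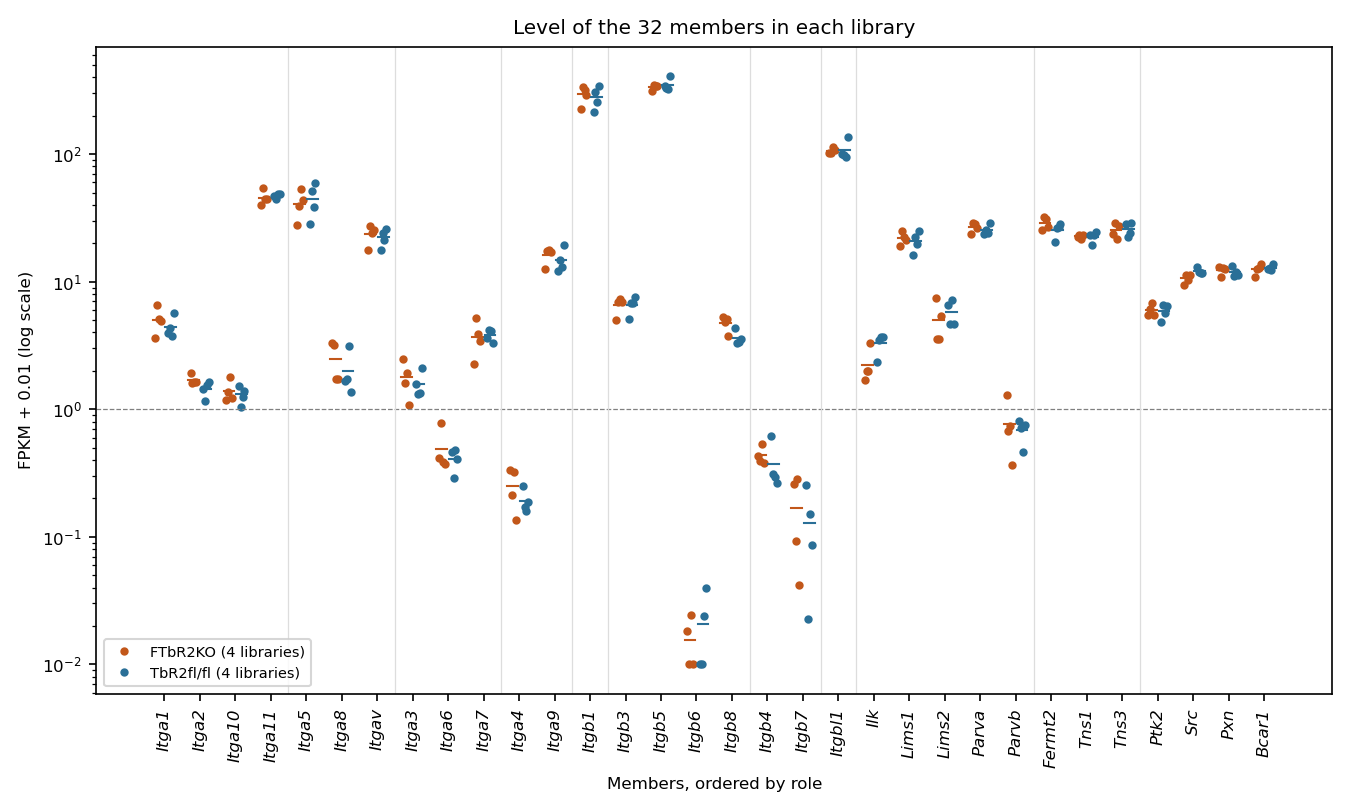
FPKM plus 0.01 on a log axis for the 32 members in each of 8 libraries, ordered by role, with a bar at the mean of each group and a dashed line at 1 FPKM. Itgb5 and Itgb1 lie above 200 in every library, 6 members lie under the line in nearly every library, and the groups overlap for all members but Src.

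**Figure D2:**
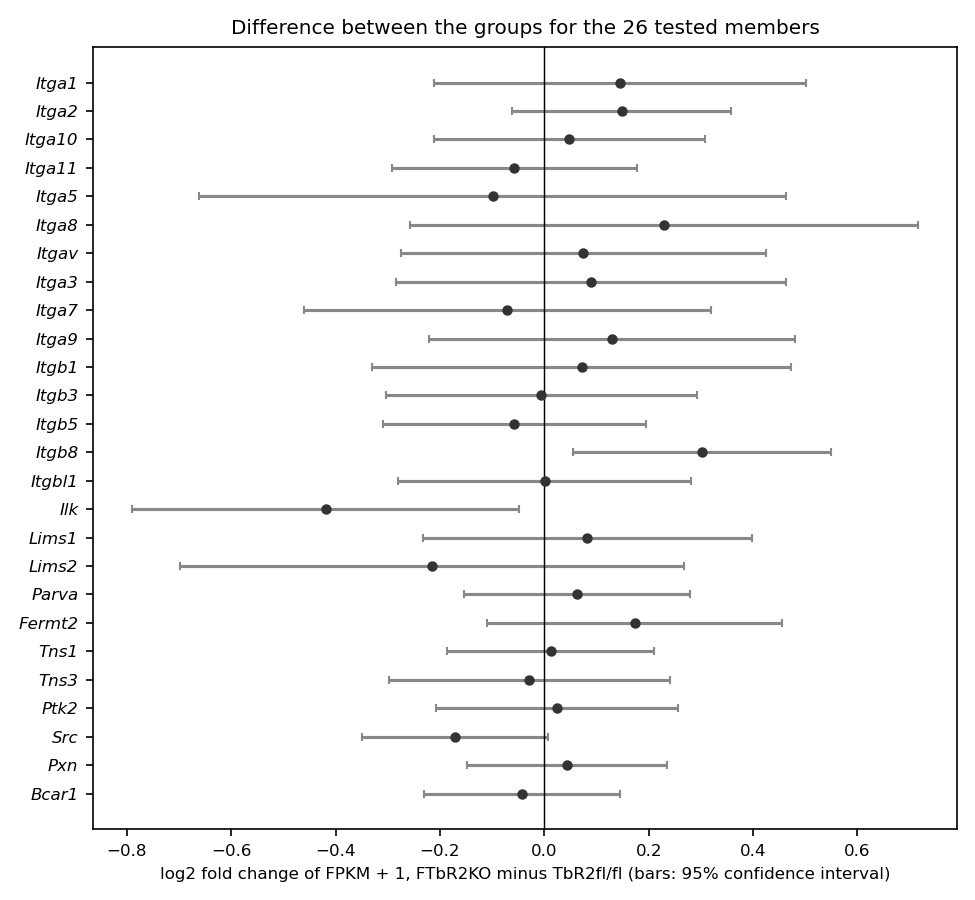
Log2 fold change of FPKM + 1 (libraries labelled FTbR2KO minus TbR2fl/fl) for the 26 tested members, with 95% confidence intervals from limma. The intervals of 24 members hold 0; those of Itgb8 (above 0) and Ilk (below 0) do not, and neither passed after adjustment.

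The alpha chain decides which matrix protein an integrin binds. Among the 4 chains of the collagen receptors, Itga11, the fibroblast chain for fibrillar collagen, had by far the highest FPKM. Its FPKM was 39.6, 54.0, 44.5 and 44.3 in FTbR2KO 1 to 4 and 47.0, 44.4, 49.1 and 48.5 in TbR2fl/fl 5 to 8. FTbR2KO libraries held both the lowest and the highest value, and the controls lay between them. The log2 fold change was -0.06 (SE 0.10, limma adjusted p = 0.893). Itga1, a receptor chain for collagen IV, was at 5.03 ± 1.21 against 4.42 ± 0.868 FPKM (SD, n = 4 each). Itga2, of the collagen receptor found on platelets and epithelia, was at 1.69 ± 0.141 against 1.43 ± 0.202, and Itga10, best known from cartilage, at 1.38 ± 0.279 against 1.29 ± 0.214. Itga11 alone made up 83.9% to 88.3% of the summed FPKM of these 4 chains. That share depends on the gene lengths used, 5131 bases for Itga11 and 18599 for Itga1. In recovered reads, Itga11 had 18050 over the libraries labelled FTbR2KO and 25751 over the controls, beside 7229 and 8848 for Itga1. Of the exon bases of Itga10, 33.5% belong also to a readthrough gene on the same strand, so its reads may be split and its value is uncertain.

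Itga5, Itgav and Itga8 are chains of the receptors that recognise the RGD tripeptide in fibronectin, vitronectin and latent TGF-β. Itga5, the fibronectin receptor chain, was at 27.9, 38.9, 53.4 and 43.4 FPKM in FTbR2KO 1 to 4 and at 28.3, 51.1, 38.7 and 59.5 in TbR2fl/fl 5 to 8. It varied 2.13-fold between libraries, with both groups covering nearly the same range. Between the groups Itga5 had a log2 fold change of -0.10 (SE 0.25, 95% interval -0.66 to 0.46). Itgav, which pairs with 5 of the beta chains, lay between 17.7 and 27.2 FPKM against 17.7 and 26.1. Itga8, a chain of mesenchymal and smooth muscle cells, was at 1.72 to 3.28 against 1.35 to 3.14. Of the summed FPKM of the 3 chains Itga5 had 56.1% to 68.4%, Itgav 30.0% to 39.3% and Itga8 1.55% to 6.71%, in overlapping ranges in both groups.

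The laminin-binding chains were low. Itga7, the laminin receptor chain of muscle, was at 2.24, 5.17, 3.85 and 3.39 FPKM in FTbR2KO 1 to 4 and at 3.61, 4.18, 4.08 and 3.27 in TbR2fl/fl 5 to 8. The controls lay inside the range of the libraries labelled FTbR2KO. Itga3 lay between 1.07 and 2.48 FPKM against 1.31 and 2.09. Itga6, the partner of Itgb4 in epithelia, stayed between 0.278 and 0.765 over all 8 libraries, with 63 to 120 reads, and was not tested.

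Itga9 and Itga4 form a separate subfamily that binds tenascin-C, osteopontin, VCAM-1 and the alternatively spliced parts of fibronectin. Itga9 was at 12.6, 17.5, 17.6 and 17.0 FPKM in FTbR2KO 1 to 4 and at 12.1, 14.8, 12.9 and 19.3 in TbR2fl/fl 5 to 8, so the control group spanned the other. The log2 fold change was 0.13 (SE 0.16, limma adjusted p = 0.825). Itga4, the chain of the leukocyte homing receptor VLA-4, was at 0.125 to 0.326 FPKM, with 40 to 98 reads per library, and under the limit for testing.

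Itgb1 pairs with all 12 alpha chains listed here and is needed for most receptors of collagen, laminin and fibronectin. It was at 228, 337, 318 and 293 FPKM in FTbR2KO 1 to 4 and at 215, 309, 257 and 343 in TbR2fl/fl 5 to 8. The lowest library of each group was the one that the first principal component set apart. Its log2 fold change was 0.07 (SE 0.18, 95% interval -0.33 to 0.47).

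The beta chains that pair with alphaV were led by Itgb5, a vitronectin receptor chain. Its FPKM was 311, 351, 340 and 344 in FTbR2KO 1 to 4 and 344, 332, 322 and 407 in TbR2fl/fl 5 to 8, which gave a log2 fold change of -0.06 (SE 0.11). It was the most abundant of the 32 members and ranked 97 among all genes by mean FPKM, while Itgb1 ranked 127. The ranges of both genes overlap, but within every library the FPKM of Itgb5 was above that of Itgb1, by 1.04- to 1.599-fold. That order depends on the gene lengths used, 3553 bases for Itgb5 and 4081 for Itgb1. In recovered reads, Itgb5 had 92611 and Itgb1 92962 over the libraries labelled FTbR2KO. Over the controls Itgb5 had 133782 and Itgb1 122666. Itgb3, best known from platelets and osteoclasts, was at 6.53 ± 1.04 against 6.56 ± 1.03 FPKM (SD, n = 4 each). Itgb6, the epithelial chain that activates latent TGF-β, had 0 to 6 reads per library (0 to 0.0296 FPKM).

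Itgb8, whose pairing with alphaV activates latent TGF-β, had the smallest p of the members. Its FPKM was 5.26, 4.81, 5.06 and 3.71 in FTbR2KO 1 to 4 and 4.33, 3.32, 3.33 and 3.51 in TbR2fl/fl 5 to 8. FTbR2KO 1 to 3 lay above all controls, FTbR2KO 4 lay under TbR2fl/fl 5, and the groups overlapped. This gave a log2 fold change of 0.30 (SE 0.11, 95% interval 0.06 to 0.55, unadjusted limma p = 0.0216, adjusted p = 0.571), with an exact two-sided permutation p of 0.0571. The values rest on 753 to 1405 reads per library. Without FTbR2KO 1, FTbR2KO 3, TbR2fl/fl 6 or TbR2fl/fl 7, each left out alone, the unadjusted limma p was 0.0588, 0.0568, 0.0576 and 0.0559, and it was 0.0510 with a correction for gene length. Without FTbR2KO 4 it was 0.00295 (adjusted p = 0.225) and without TbR2fl/fl 5 it was 0.00735 (adjusted p = 0.350).

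The remaining beta-chain genes fell at opposite ends of the scale. Itgb4, the hemidesmosome chain, was at 0.419, 0.386, 0.527 and 0.368 FPKM in FTbR2KO 1 to 4 and at 0.607, 0.303, 0.286 and 0.255 in TbR2fl/fl 5 to 8. Itgb7, of leukocyte integrins, was at 0.0128 to 0.274 FPKM with 1 to 20 reads per library. Neither was tested. Itgbl1, which encodes a secreted protein resembling the cysteine-rich stalk of a beta chain, was at 102, 102, 114 and 108 FPKM in FTbR2KO 1 to 4 and at 99.5, 98.8, 95.4 and 135 in TbR2fl/fl 5 to 8. Apart from TbR2fl/fl 8 the controls lay under all libraries labelled FTbR2KO, while that library was the highest of all 8, and the log2 fold change was 0.00063 (SE 0.12).

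Because FPKM is per length, levels of chains can be set beside each other within a library. Itgb5 made up 50.2% to 60.4% of the summed FPKM of the 7 beta chains and Itgb1 37.8% to 48.1%, leaving 1.498% to 1.99% for the other 5. Among the alphaV partners other than Itgb1, Itgb5 had 96.5% to 97.4%, Itgb3 1.44% to 2.09% and Itgb8 0.841% to 1.64%. Of the summed alpha-chain FPKM, the RGD-binding chains had 39.9% to 51.8% and the collagen-binding chains 33.8% to 45.1%. The Itga4 and Itga9 subfamily followed with 9.50% to 11.8% and the laminin-binding chains with 3.33% to 4.77%. The beta chains summed to 4.29 to 4.85 times the alpha chains, and that ratio was 4.52 ± 0.239 against 4.48 ± 0.204 in the groups (SD, n = 4 each). The ranges of all these shares overlapped between the groups. They describe RNA, not pairs of chains at the cell surface.

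**Figure D3:**
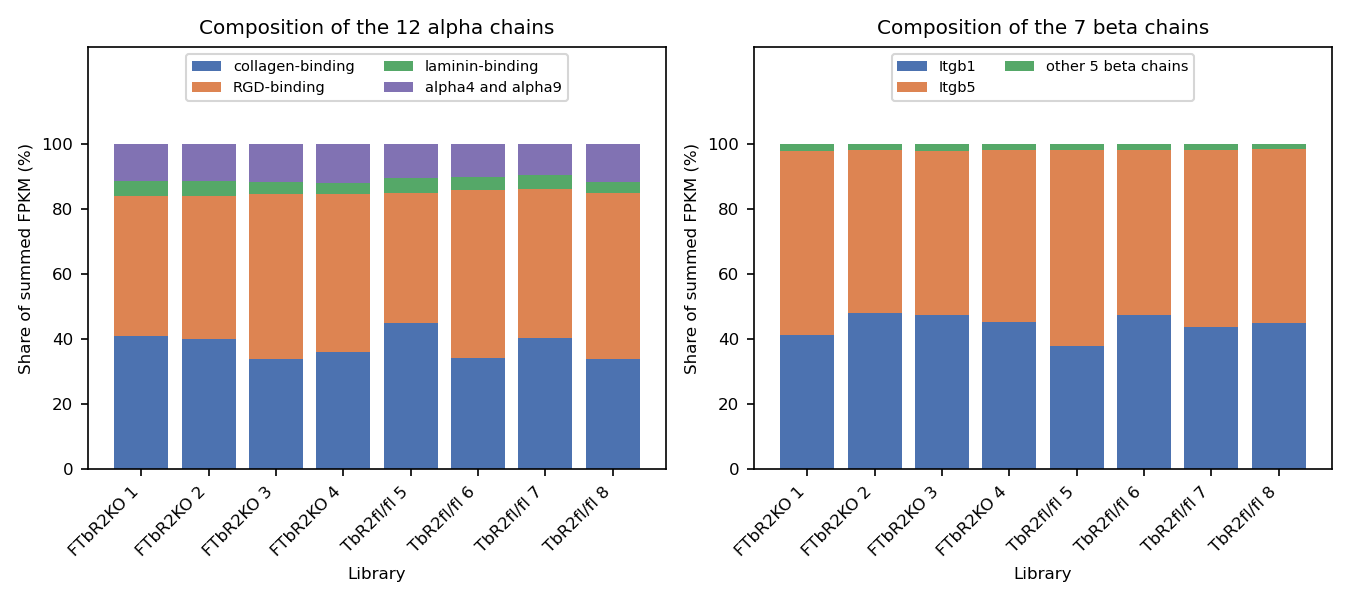
Share of summed FPKM (%) in each of 8 libraries, for 4 classes of the 12 alpha chains (left) and for Itgb1, Itgb5 and the other 5 beta chains (right). RGD- and collagen-binding chains make up most of the alpha chains and Itgb5 and Itgb1 nearly all of the beta chains in every library of both groups.

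Among the adaptors, the complex of integrin-linked kinase, PINCH and parvin held the member with the largest fold change. Ilk, the pseudokinase at the centre of the complex, was at 1.68, 1.97, 1.97 and 3.29 FPKM in FTbR2KO 1 to 4 and at 2.33, 3.47, 3.69 and 3.65 in TbR2fl/fl 5 to 8. FTbR2KO 1 to 3 lay under all controls, FTbR2KO 4 lay above TbR2fl/fl 5, and the groups overlapped. For Ilk the log2 fold change was -0.42 (SE 0.16, 95% interval -0.79 to -0.05, unadjusted limma p = 0.0306, adjusted p = 0.571), with an exact two-sided permutation p of 0.0571.

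The value of Ilk is uncertain for a further reason. The gene lies on chromosome 7 from 105736592 to 105742925 on the plus strand (GRCm38), and 89.7% of its exon bases are also exon bases of Taf10 or Rrp8, genes of the opposite strand. The use of strand in the counting is unknown here, and without it the reads of these genes cannot be told apart. Only 80 to 285 reads per library were assigned to it. Taf10, a subunit of general transcription factor TFIID, was at 8.80 ± 1.498 against 9.57 ± 1.62 FPKM (SD, n = 4 each; limma adjusted p = 0.850). Rrp8, a ribosomal RNA processing factor, was at 4.46 ± 0.666 against 4.72 ± 0.919 (adjusted p = 0.917). Both neighbours, like Ilk, had their lowest value of each group in FTbR2KO 1 and TbR2fl/fl 5. Left out 1 at a time, each of FTbR2KO 1, 2 and 3 and TbR2fl/fl 6, 7 and 8 moved the unadjusted p of Ilk to between 0.0678 and 0.0814. Without FTbR2KO 4 it was 0.00269 (adjusted p = 0.222) and without TbR2fl/fl 5 it was 0.00786 (adjusted p = 0.350).

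Parva, the parvin of most tissues, was at 23.6, 28.7, 28.3 and 26.1 FPKM in FTbR2KO 1 to 4 and at 23.7, 25.5, 24.0 and 28.8 in TbR2fl/fl 5 to 8, nearly the same range. Parvb lay between 0.357 and 1.29 FPKM and passed 1 FPKM in FTbR2KO 1 alone, so it was not tested, and Parva had 94.8% to 98.7% of the summed FPKM of both. Lims1, which encodes PINCH1, was at 22.0 ± 2.61 against 20.9 ± 3.84 FPKM (SD, n = 4 each), and Lims2, its paralog, at 4.96 ± 1.85 against 5.78 ± 1.32. Lims2 was high in FTbR2KO 1 (7.42), TbR2fl/fl 5 (6.58) and TbR2fl/fl 7 (7.23), which held the 3 lowest values of Lims1 (18.9, 16.0 and 19.9). The share of Lims1 in the sum of the pair therefore ran from 70.9% to 87.6%.

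Fermt2 (kindlin-2), Tns1 and Tns3 (tensins) bind the beta tail directly. Fermt2 was at 25.3, 32.2, 31.3 and 26.6 FPKM in FTbR2KO 1 to 4 and at 20.3, 26.2, 27.1 and 28.5 in TbR2fl/fl 5 to 8. The upper values belonged to FTbR2KO 2 and 3 and the lowest to TbR2fl/fl 5, and the log2 fold change was 0.17 (SE 0.13, limma adjusted p = 0.711). Tns1 was the member with the least difference between its groups after Itgbl1 and Itgb3, at 22.7 ± 0.905 against 22.5 ± 2.20 FPKM (SD, n = 4 each). Tns3 was at 25.3 ± 3.28 against 25.9 ± 3.15. The tensins were thus present at similar levels, Tns1 having 44.9% to 49.8% of their sum.

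Of the kinases and scaffolds, Bcar1 (p130Cas, a docking protein that Src phosphorylates) was the highest. It was at 10.9, 12.5, 12.8 and 13.8 FPKM in FTbR2KO 1 to 4 and at 12.6, 12.9, 12.3 and 13.6 in TbR2fl/fl 5 to 8. The controls fell inside the range of the libraries labelled FTbR2KO. Pxn was at 12.3 ± 1.01 against 11.9 ± 0.901 FPKM and Ptk2 at 5.98 ± 0.597 against 5.88 ± 0.815 (SD, n = 4 each).

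Src, the founding member of the Src family tyrosine kinases, was the 1 member whose groups were separate. Its FPKM was 9.44, 11.3, 10.3 and 11.3 in FTbR2KO 1 to 4 and 12.9, 11.9, 11.6 and 11.8 in TbR2fl/fl 5 to 8. All 4 libraries labelled FTbR2KO lay under all 4 controls, though FTbR2KO 2 and 4 came close to TbR2fl/fl 7. Src had a log2 fold change of -0.17 (SE 0.079, 95% interval -0.35 to 0.01, limma unadjusted p = 0.0578, adjusted p = 0.590). The exact two-sided permutation p was 0.0286, the smallest that 4 against 4 allow. Any gene with separate groups has this p, so it adds nothing to the separation. When FPKM was converted to TPM the groups overlapped and the log2 fold change was -0.02, on a scale where the median of all genes moved to 0.15. Without FTbR2KO 1 and TbR2fl/fl 5, the libraries with the lowest and the highest Src, the log2 fold change was -0.09 (limma adjusted p = 0.632).

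**Figure D4:**
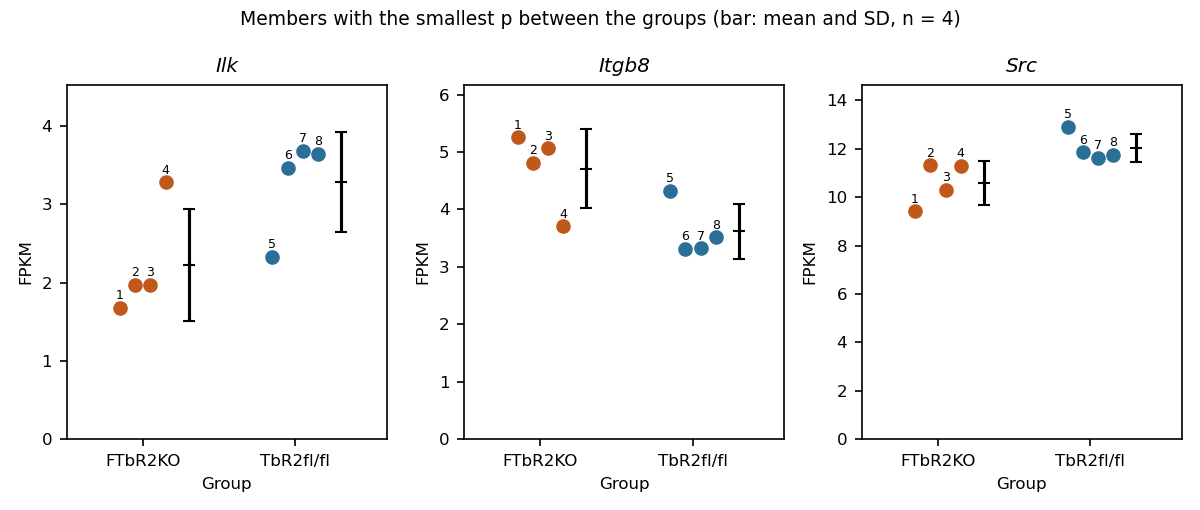
FPKM of Ilk, Itgb8 and Src in each library (numbers are the sample numbers), with the mean and SD of each group of 4. Ilk and Itgb8 overlap between the groups through FTbR2KO 4 and TbR2fl/fl 5, and Src does not overlap.

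Several members differed between libraries of the same genotype in a shared way. FTbR2KO 1 had the lowest value of its group for 17 of the 26 tested members (65.4%, beside 36.2% of all tested genes), and TbR2fl/fl 8 the highest of its group for 16 (61.5%, beside 28.4%). TbR2fl/fl 5 had the lowest of its group for 10 members (38.5%), near the 40.3% of all tested genes. In the libraries that the first principal component set apart, FTbR2KO 1 and TbR2fl/fl 5, 8 members were lower than in each of the other 6 libraries: Itga5, Itgav, Itga9, Itgb1, Itgb3, Lims1, Parva and Fermt2. These are 30.8% of the tested members, beside 18.6% of all tested genes. Pxn was higher in both (3.85%, beside 9.87%). The component was computed from all genes, members included, so these counts describe the libraries and are no test.

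**Figure D5:**
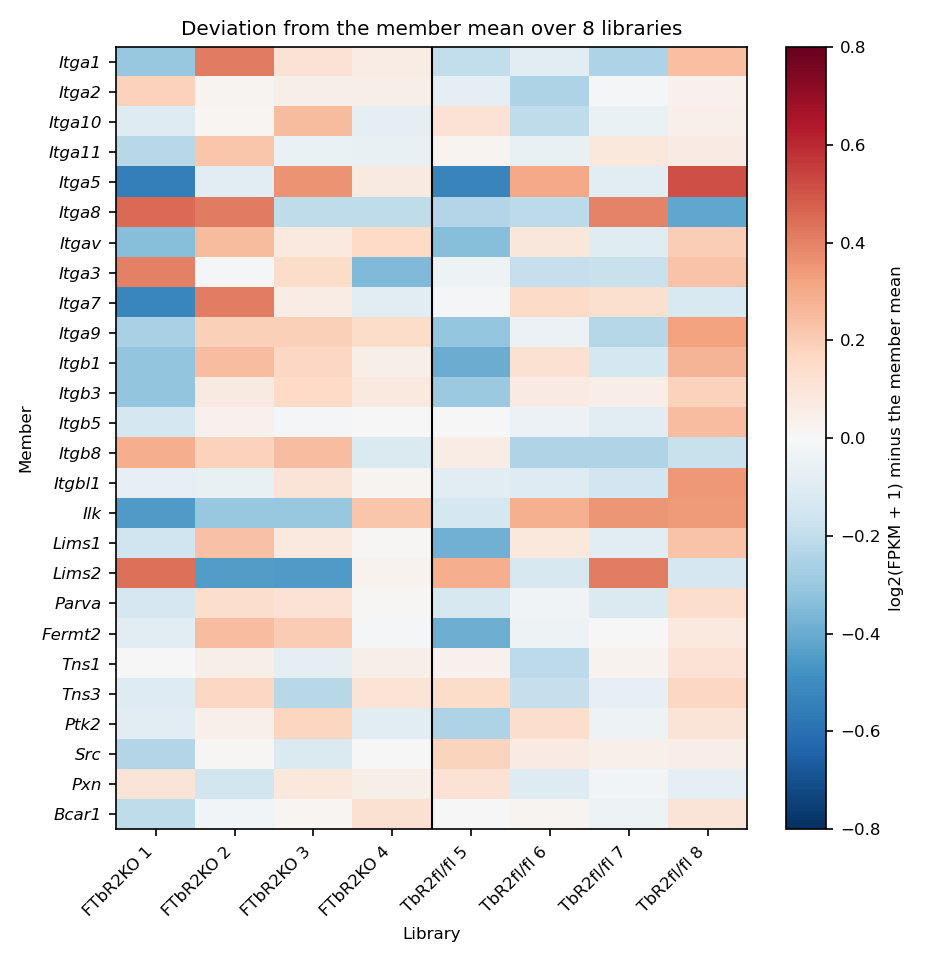
Log2(FPKM + 1) of the 26 tested members in each library minus the mean of that member over 8 libraries (colour, blue below and red above), with a line between the groups. FTbR2KO 1 and TbR2fl/fl 5 share lower values of Itga5, Itgav, Itgb1 and other members, and TbR2fl/fl 8 is higher for most.

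The comparison was repeated for other genes of the same machinery. Of 57 further focal adhesion and integrin signalling genes 48 were tested. None passed limma's adjusted threshold, 33 were above 0 and 15 below, with a median log2 fold change of 0.03. An unadjusted p under 0.05 was found for 2 of the 48, a smaller share than the 8.61% of all tested genes. Those with the smallest p were Rock1 and Rock2, the kinases that drive actomyosin contraction, Dock1, an activator of Rac, and Lpp, a zyxin-related protein. Rock1 was at 12.8 ± 1.91 against 10.3 ± 0.550 FPKM and Rock2 at 12.9 ± 1.59 against 10.9 ± 1.16 (SD, n = 4 each), and all 4 genes overlapped between the groups.

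Matrix ligands of these integrins were examined as well, and 34 of 45 were tested. None passed limma's adjusted threshold, 20 were above 0 and 14 below, and the median was 0.04. An unadjusted p under 0.05 was found for 1 gene in each direction, also a smaller share than the 8.61% of all tested genes. The groups did not overlap for 3 of the 34, beside 4.41% of all tested genes, a count too small to be a result about the ligands. Col1a1 and Col1a2, the chains of type I collagen, ligand of the receptor with Itga11, were among them. Col1a1 was at 3934 ± 424 against 5005 ± 283 FPKM (SD, n = 4 each; log2 fold change -0.35, SE 0.14, limma adjusted p = 0.571). Col1a2 was at 1553 ± 186 against 1898 ± 70.7 (log2 fold change -0.30, SE 0.13, adjusted p = 0.581). Nov, a matricellular protein of the CCN family, was at 26.6 ± 7.72 against 18.4 ± 2.17 and Tnn, tenascin-W, at 1.01 ± 0.276 against 1.80 ± 0.887.

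The latent TGF-β proteins on which alphaV integrins act were also measured. Of 5 genes 4 were tested, 1 above 0 and 3 below, none past the threshold, with a median of -0.06. Ltbp1, which tethers latent TGF-β to the matrix, was at 24.3 ± 4.54 against 18.6 ± 3.99 FPKM (SD, n = 4 each; limma adjusted p = 0.591). Tgfb3 was at 175 ± 17.5 against 189 ± 19.6, Tgfb1 at 23.5 ± 6.35 against 26.2 ± 8.86, and Lrrc32, the cell surface anchor GARP, at 30.8 ± 1.33 against 31.3 ± 3.98.

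Integrins and markers of other cells show what the sorted population could hold. Of 8 leukocyte and platelet integrins 7 stayed under 1 FPKM in every library, Itgad was at 0 throughout, and the 8 summed to 1.00 to 1.64 FPKM against 1.30 to 2.12. The exception was Itga2b, the platelet chain that pairs with Itgb3, at 1.05 ± 0.268 against 1.26 ± 0.182 FPKM (SD, n = 4 each). Macrophage and monocyte markers (3 of 13 tested) summed to 8.45 to 12.9 FPKM against 10.4 to 13.2, and other leukocyte markers (0 of 11 tested, with Cd3g, Ncr1 and Flt3 at 0) to 0.275 to 0.624 against 0.441 to 1.598. Platelet markers (2 of 6) summed to 2.54 to 3.61 against 2.47 to 5.37 and cardiomyocyte markers (1 of 10) to 3.16 to 6.22 against 4.45 to 5.82. Endothelial markers (2 of 10) summed to 21.04 to 27.5 against 20.2 to 29.9, mostly from Tek. Mural cell markers (9 of 9) summed to 59.5 to 104 against 64.4 to 91.1.

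Schwann cell markers (4 of 8 tested, all above 0) summed to 15.1 to 16.6 FPKM against 12.8 to 15.9. Epicardial and mesothelial markers (9 of 10 tested, all 9 above 0, none past the threshold) summed to 77.1 to 126 in the libraries labelled FTbR2KO against 48.6 to 94.2. Aldh1a2, a retinoic acid synthesis enzyme of the epicardium, was at 74.1 ± 15.7 against 49.5 ± 16.7 FPKM (SD, n = 4 each; limma adjusted p = 0.571). Their part in the values of Itgb8, Ilk and Src was not tested.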

How the data were processed

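The labels' design text and protocols describe RNA sequencing of sorted, uncultured cells, with NEBNext Ultra libraries. The deposited table holds gene-level FPKM values that the authors computed. Builds mm10 and GRCm38.p6 and the tools HTSeq 0.6.1, Cufflinks 2.1.1, TopHat2 2.0 and CASAVA appear in the submitters' processing notes, without their roles. How strand was handled is unknown here. FPKM times gene length gave whole reads within 0.01 for 100% of the values above 0, so reads per gene were recovered. No column was left unmapped.

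The 11667 genes that reached 1 FPKM in 4 or more of 8 samples were tested with limma 3.58.1 in R 4.3.3: log2(FPKM + 1), trended variances, no covariate, two-sided, Benjamini-Hochberg over all tested genes, threshold 0.05. Members and lists were chosen with earlier results of these data known. All members were named. Values in every library were given for members with an unadjusted p under 0.05, for separate groups and for the highest of each role, and up to 4 genes with the smallest p were named from each other list described in detail. Gene models, coordinates and coding ends came from GENCODE M21, matched by gene ID: start, end and exon length matched the table for 31 of 32 members. Parvb and 5 integrin chains fell under the filter. Alternatives were other pseudocounts, filters and scalings, sample weights, recovered reads, a length correction, covariates and left-out libraries. A result for 1 matrix ligand is not reported here.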

Additional observations from a re-analysis of the deposited data

Results flagged for a closer look

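In each group of 4, the highest or lowest library was compared with the range of the group, and 7 of 108 groups (the 64 of the members and those of other reported values) had a library far from the other 3. Chance alone gives about 1 in 20. Itga2 was at 1.90 FPKM in FTbR2KO 1 against 1.59 to 1.64 in the other libraries of its group, and Itga9 at 12.6 in the same library against 17.0 to 17.6. Itga6 was at 0.765 FPKM in FTbR2KO 2 against 0.364 to 0.402. TbR2fl/fl 5 stood apart for Itgb4 (0.607 against 0.255 to 0.303), Ilk (2.33 against 3.47 to 3.69) and Src (12.9 against 11.6 to 11.9). Itgbl1 was at 135 FPKM in TbR2fl/fl 8 against 95.4 to 99.5. FTbR2KO 1 or TbR2fl/fl 5, set apart by the first principal component, hold 5 of the 7.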

How the results depend on the processing

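No paired analysis was run, because the labels used here name no pairs of samples across the groups. In all 21 alternatives 0 members passed limma's adjusted threshold. Over all genes 2 passed, 1 with the filter at 5 FPKM, 3 with Xist as a covariate, and 2 to 8 with 1 library left out (8 without FTbR2KO 4, of which 6 were higher). The count of members whose groups do not overlap was 1, and 1 to 3 with 1 library left out: Itgb8 and Ilk joined Src without FTbR2KO 4 or TbR2fl/fl 5, and Itgbl1 and Itga2 joined it without TbR2fl/fl 8. Itga2 joined it without FTbR2KO 2 and Itga8 without TbR2fl/fl 7. It was 3 without FTbR2KO 1 and TbR2fl/fl 5 together. With TPM it was again 1, but Itga2 (higher) in place of Src, on a scale that moved the median of all genes to 0.15 and raised the members above 0 from 16 to 23, while 80.4% of all genes were above 0. This count was not recomputed with sample weights or covariates, which leave the values as they are. Smaller groups separate more easily, and the share of all genes without overlap is not given for fits with libraries left out. The counts from those fits are therefore no result about the members. Of the 26 tested members 9 kept the sign of their fold change in every alternative, and 17, all with an unadjusted p over 0.05, had another sign in at least 1. The causes were not tested. Members at 1 to 3 FPKM rest on 80 to 473 reads per library.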

Other observations

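Itga8 took values near 2 levels in both groups. It was at 3.28, 3.18 and 3.14 FPKM in FTbR2KO 1, FTbR2KO 2 and TbR2fl/fl 7 and at 1.35 to 1.72 in the other 5 libraries. This pattern followed neither the genotype nor the libraries set apart by the first principal component, and it was chosen after its values were seen.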
